A study of Mus musculus with 4 samples.

Results

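The B4 and ID short interspersed elements (SINEs) of the mouse genome were examined as transcribed copies in embryonic stem cells (ESCs) with and without the telomerase RNA gene Terc. Members were the single transposable element (TE) copies whose repeat name was B4, B4A, RSINE1 or ID_B1, here called the B4 group, or ID, ID2, ID4 or ID4_, here called the ID group. This rule used names only and no measured value, though earlier results of these data were known when it was chosen. It gave 461773 of the 3658072 TE copies counted, 397726 in the B4 group and 64047 in the ID group. RSINE1 was the name with the most copies (115806), followed by ID_B1 (110827), B4A (107073) and B4 (64020), while ID4_ had 26384, ID4 23970, ID 8022 and ID2 5671.

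Poly(A) RNA-seq was compared between wild-type (WT) ESCs of line N12 and G3 Terc-/- ESCs of line F35, with 2 libraries per genotype. G3 denotes the third generation without telomerase, and these ESCs came from G2 Terc-/- parents, so their telomeres had shortened over generations of breeding. Both lines were C57BL/6 and were grown on feeder cells in serum-containing medium with leukemia inhibitory factor. With 1 line per genotype, genotype and line cannot be told apart, and the p-values measure the spread between libraries of the same line.

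SINEs are nonautonomous retrotransposons that are copied by RNA polymerase III from a promoter inside the element, made of an A box and a B box, and that depend on the enzymes of LINE-1 for insertion. ID elements are related to Bc1, a gene for a small noncoding RNA of neurons that itself resembles a tRNA, and elements of the B4 family join ID-like sequence to sequence like that of B1. Most SINE copies in a poly(A) library lie within introns or untranslated parts of longer transcripts made by RNA polymerase II, and the counts used here do not set such a copy apart from a copy transcribed on its own. The part of either source in the results was not tested.

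The ID-like part of Bc1 is shown because it is the sequence that the ID names share by descent, and because it holds both boxes of the internal promoter. Bc1 lies on chromosome 7 at chr7:144914470-144914637 of GRCm38, on the plus strand, as an annotated noncoding gene of 168 bases. The bases before its A-rich part, 76 in number, read as follows, 5′ to 3′, with the A box (TAGCTCAGTGG, bases 14 to 24) and the B box (GGTTCGNNNC, bases 57 to 66) in capitals.
Bc1: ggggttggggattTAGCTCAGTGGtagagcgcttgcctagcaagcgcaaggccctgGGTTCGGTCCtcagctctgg
On both strands of 32851 RefSeq promoter windows of the mouse, the A box letters were found in 0.0609% and the B box letters in 1.52%. A stretch of 20 bases that covers the A box, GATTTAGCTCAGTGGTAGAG, occurred in annotated transcripts of 24 of 55341 genes, in 10 of them, Bc1 among these, as written and in 14 as its reverse complement. Of the 17 that were tested, 2 were higher and 3 lower in G3 Terc-/- ESCs by adjusted p-value (11.8% and 17.6%, against 21.7% and 21.8% of all genes tested), with a median log2 fold change of -0.11. Bc1 itself was listed at 0 counts in each of the 4 libraries. Since multimapper settings were not given in the sources used here, this does not show that its RNA was absent.

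Counts assigned to genes lay between 18047995 and 22520017 per library and TE counts between 1805047 and 2104586. Terc was counted 7 and 2 times in WT ESCs and was at 0 in either G3 Terc-/- library. Summed over 8 pluripotency genes, the level in WT was 4125 and 4185 CPM (gene counts scaled to a fixed library total) against 6058 and 6306 CPM in G3 Terc-/- ESCs, and 7 of the 8 genes were higher and 1 lower. The 10 feeder fibroblast genes summed to 1438 and 1217 CPM in WT against 2220 and 1921 CPM in G3 Terc-/- ESCs, with 6 of the 9 tested higher and none lower. The 7 trophoblast and endoderm genes summed to 222 and 207 CPM in WT against 107 and 103 CPM in G3 Terc-/- ESCs, with 1 higher and 4 lower, and no marker of the 3 lists was at 0 in all libraries. The part of these shifts in the results on SINEs was not tested, and in such bulk samples fewer cells of a type and less RNA per cell cannot be told apart.

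Most member copies were silent or nearly so. Of all 461773, 377757 (81.8%) had no count in any library, 54722 had 1 to 4 counts over the 4 libraries, and 29294 (6.34%) had at least 5 and were tested. Over all TEs, 85.4% of the copies had no count and 4.81% were tested. The tested members held 91.9% of the 1232930 member counts, and the 1356 copies with the most counts held the first 50%. The share of copies tested was highest for ID_B1 (8.19%) and lowest for B4A (4.57%), with B4 at 4.62%, RSINE1 at 6.52% and the ID names between 7.11% and 7.66%.

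A few copies carried much of each name. The copy with the most counts gave 8.84% of the counts of ID2, 7.72% of ID4_, 6.62% of ID4, 6.10% of ID_B1, 5.01% of B4, 3.70% of B4A, 3.33% of ID and 1.44% of RSINE1. For ID2, 13 copies made up the first 50% of its counts, compared with 715 copies for RSINE1. A sum for ID2 was therefore a sum over few loci, whereas that for RSINE1 was spread over many more.

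The first comparison asked whether these SINEs took a different part of the TE counts without Terc. Members made up 15.38% of the TE counts in each WT library against 15.36% and 15.25% in G3 Terc-/- ESCs. Both G3 Terc-/- values were below both WT values, with a mean difference of -0.0767 percentage points, and the exact two-sided permutation test gave p = 0.333, the smallest that 2 libraries against 2 allow. As a share of the gene counts the order was the opposite, with 1.44% in each WT library against 1.45% and 1.53% in G3 Terc-/- ESCs. The B4 group held 12.06% and 12.07% in WT and 12.10% and 11.92% in G3 Terc-/- ESCs, and the ID group 3.32% and 3.31% against 3.26% and 3.33%. In both groups the genotypes overlapped (exact permutation p = 1 for each), and the sign of the mean difference rested on single libraries. It was -0.0572 percentage points for the B4 group and 0.0328 without G3 Terc-/- replicate 2, and -0.0195 for the ID group and 0.0151 without G3 Terc-/- replicate 1.

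The ratio of the members to the SINEs most like them was then taken in each library. The log2 ratio of the B4 group to the sum of 10 B1 names was -0.64 and -0.64 in WT and -0.62 and -0.66 in G3 Terc-/- ESCs, and that of the ID group to B1 was -2.50 and -2.51 against -2.51 and -2.50 (exact permutation p = 1 for each). To the sum of 5 B2 and B3 names, the log2 ratio of the ID group was -1.64 and -1.63 in WT and -1.59 and -1.62 in G3 Terc-/- ESCs. This difference of 0.03 did not overlap between genotypes (exact permutation p = 0.333), whereas the B4 group, also at a difference of 0.03, overlapped (p = 1).

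The repeat names were then compared one by one after normalization among TE names (TMM), in CPM of TE counts. Of the 8 names, 4 (B4, B4A, RSINE1 and ID) were lower in G3 Terc-/- ESCs by adjusted p-value and none was higher (5 and 0 at an unadjusted P under 0.05, and 2 and 0 by adjusted p-value with DESeq2), but all 4 calls were lost when the TE counts were scaled by the gene counts. Over all 917 names tested, 11.6% were lower and 13.2% higher, with a median log2 fold change of -0.00461. The declines were small: no member name passed a fold change of 1.5 with P under 0.05, which 8.07% of all names did. An absence of calls at that fold says only that changes of the names were smaller than 1.5-fold.

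In the B4 group, B4 had 14046 and 14298 CPM in WT against 13303 and 13148 in G3 Terc-/- ESCs. Both G3 Terc-/- libraries lay below both WT libraries, and the mean fell by 6.68% (log2 fold change -0.10 ± 0.02 SE, adjusted p = 0.00849 by the quasi-likelihood test of edgeR after Benjamini-Hochberg adjustment, n = 2 per genotype). RSINE1, the name with the most copies, had 30905 and 30520 CPM in WT against 28939 and 29321 in G3 Terc-/- ESCs, and fell by 5.15% (log2 fold change -0.08 ± 0.02 SE, adjusted p = 0.0161, edgeR). B4A had 21147 and 20980 CPM against 20209 and 19839 (-0.07 ± 0.02 SE, adjusted p = 0.0271, edgeR). ID_B1 had 56794 and 56969 CPM in WT against 55926 and 55308 in G3 Terc-/- ESCs, and did not pass (-0.03 ± 0.02 SE, adjusted p = 0.201, edgeR).

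In the ID group, ID had 2658 and 2653 CPM in WT against 2421 and 2430 in G3 Terc-/- ESCs. It fell by 8.67%, the largest change among the 8 names (log2 fold change -0.13 ± 0.03 SE, adjusted p = 0.0119, edgeR). ID4 had 14285 and 14100 CPM against 13265 and 13767 (-0.07 ± 0.02 SE, adjusted p = 0.0618, edgeR), and ID4_ 14068 and 14119 CPM against 13394 and 13813 (-0.05 ± 0.02 SE, adjusted p = 0.144, edgeR). ID2 was the only name above WT in both G3 Terc-/- libraries, with 2782 and 2796 CPM in WT against 2810 and 2836 in G3 Terc-/- ESCs, a difference within its error (0.02 ± 0.03 SE, adjusted p = 0.740, edgeR). After TMM scaling the libraries of one genotype lay wholly above or below those of the other for each of the 8 names. The share of all tested names that did so was not computed, so this is a description only. As plain shares of the TE counts, B4A, ID4 and ID4_ overlapped between genotypes.

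**Figure D1:**
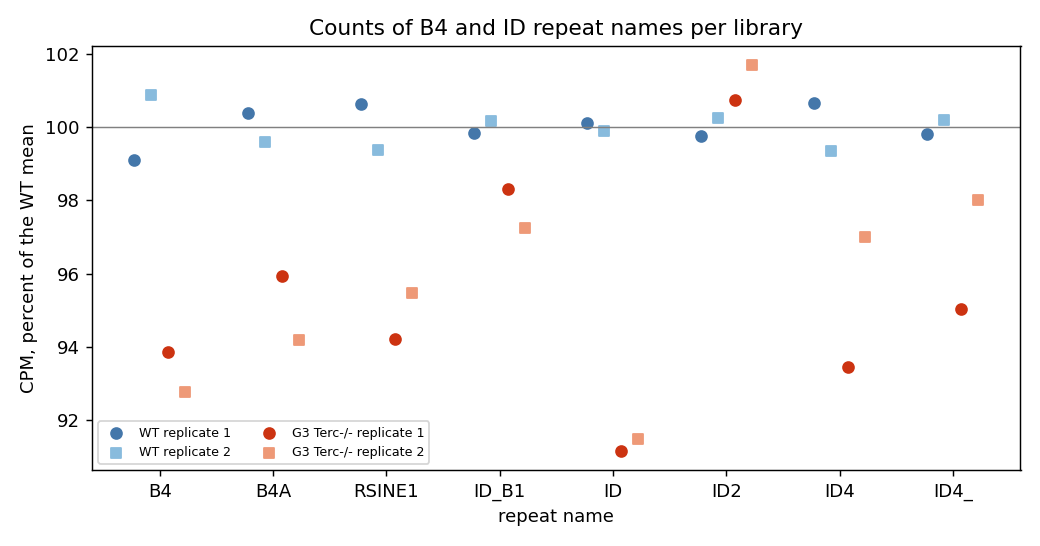
Normalized counts of the 8 repeat names in each library, as a percent of the WT mean of that name (y axis, in percent; the axis does not start at 0). Points are single libraries; the G3 Terc-/- libraries lie below the WT libraries for each name except ID2, with ID lowest.

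These calls depended on the scaling and on single libraries. Scaled by the gene counts, the median of all names was 0.07, no member name was called, and ID_B1 (0.04), ID4 (0.00267) and ID4_ (0.02) turned positive. As a plain share of the TE counts, with no TMM factor, ID_B1 was also higher, at 5.57% and 5.60% in WT against 5.72% and 5.61% in G3 Terc-/- ESCs, whereas B4 (1.38% and 1.41% against 1.36% and 1.33%) and ID (0.261% in each WT library against 0.247% and 0.246%) stayed lower without overlap. On that scale B4A overlapped between genotypes (2.08% and 2.06% against 2.07% and 2.01%), the mean of RSINE1 fell by 1.74% without overlap, and ID2 was higher (0.273% and 0.275% against 0.287% in each G3 Terc-/- library). Without WT replicate 2 none of the 8 names was called and without WT replicate 1 only B4 was, although their log2 fold changes kept the sign they had with all libraries. In the opposite direction, 7 names were called lower once the most abundant copy of every TE name, member or not, was left out. The median of all names was then -0.01. The log2 fold changes of B4 (to -0.12), B4A (to -0.09) and ID4 (to -0.09) also moved down, though their most abundant copies stayed near the WT level. The part of the changed scaling in the added calls was not tested. ID4_ then stood at a log2 fold change of -0.16 (adjusted p = 0.0018, edgeR), and its most abundant copy was higher in G3 Terc-/- ESCs.

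**Figure D2:**
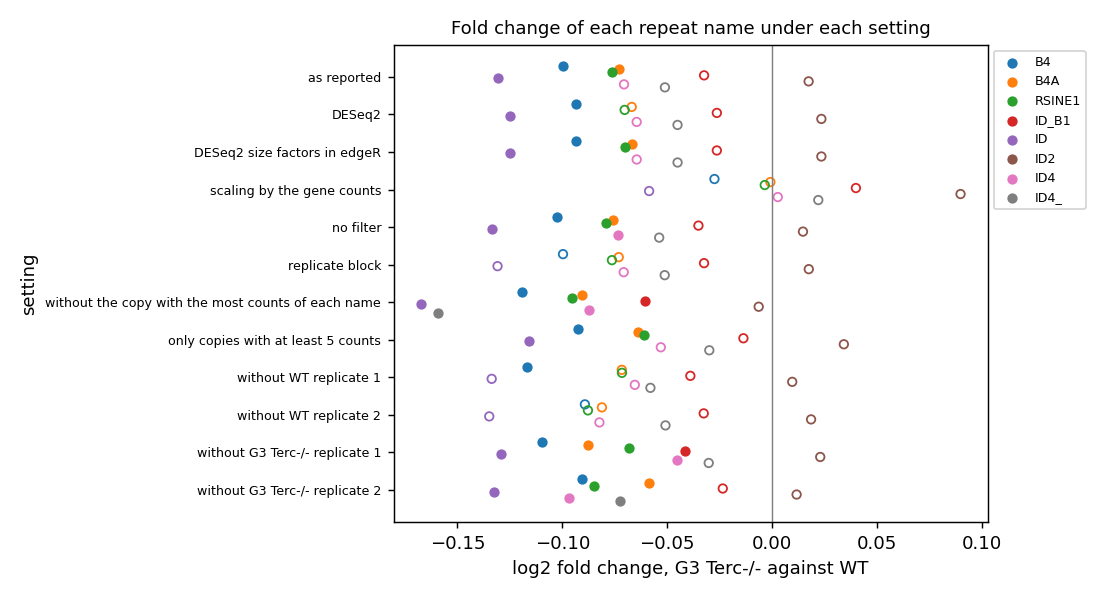
Log2 fold change of each repeat name, G3 Terc-/- against WT (x axis), with all libraries and under each other setting (y axis). Filled points have an adjusted p under 0.05 and open points do not; with scaling by the gene counts every point is open and 4 names lie above 0.

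Among single copies, 867 of the 29294 tested members were higher and 1147 lower without Terc when a fold change over 2 with P under 0.05 was asked for, the cutoffs of the study for single copies. This was 2.96% higher and 3.92% lower, beside 4.7% higher and 3.87% lower over all 176114 TE copies tested. The share of members lower was thus near that of all TEs, and the share higher was below it. B1 copies (3.11% higher, 3.83% lower) and B2 and B3 copies (2.63% higher, 3.93% lower) were similar in this. By adjusted p-value with the same fold, 57 of the 29294 members were higher and 78 lower. Of all 176114 TE copies, 1117 were higher and 644 lower (0.634% and 0.366%). The members lay below both of these shares.

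At these unadjusted cutoffs every member name had more copies lower than higher, but by adjusted p-value with the same fold ID_B1 had 26 higher and 21 lower and ID2 had 2 of each. The unadjusted split was 81 higher and 122 lower for B4, 164 and 193 for B4A, 193 and 297 for RSINE1, and 295 and 344 for ID_B1. In the ID group it was 17 and 29 for ID, 13 and 17 for ID2, 45 and 69 for ID4, and 59 and 76 for ID4_. The median log2 fold change of the tested copies was -0.09 over all members, lowest for ID (-0.21) and above 0 only for ID2 (0.05), while that of all TE copies was 0.02. Neither trait was particular to the members. B1 copies had a median of -0.08, with 1067 higher and 1313 lower, and B2 and B3 copies -0.12, with 666 higher and 995 lower.

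**Figure D3:**
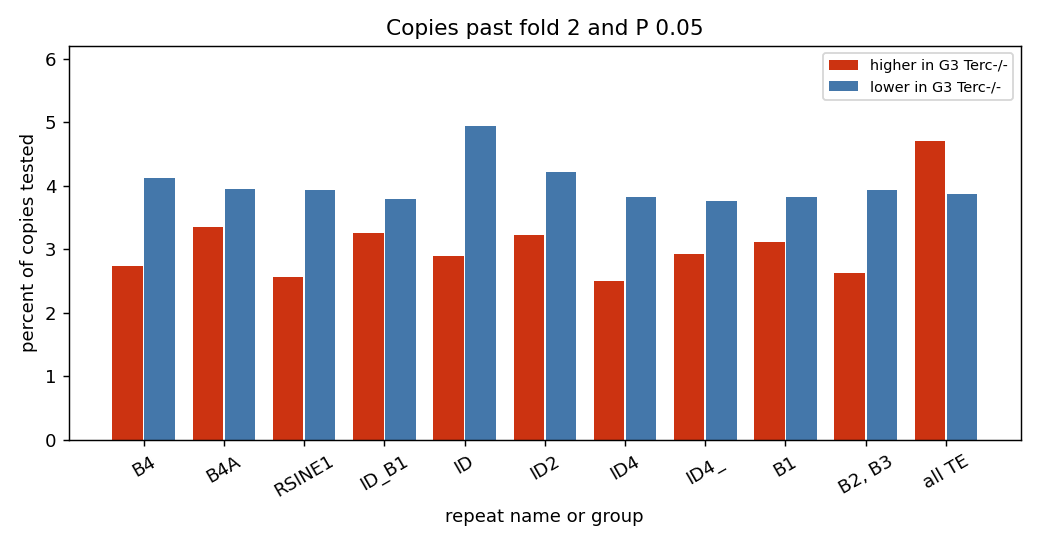
Percent of tested copies past a fold change of 2 with P under 0.05 (y axis) for each repeat name, for the B1, B2 and B3 groups, and for all TE copies (x axis). Red bars are copies higher and blue bars copies lower in G3 Terc-/- ESCs. In every member name, and in the B1, B2 and B3 groups, the blue bar is the taller, while over all TEs the red one is (4.7% against 3.87%).

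The median moved with the number of counts. It was -0.22 for the 12304 member copies with 5 to 9 counts over the 4 libraries, -0.09 for 8005 copies with 10 to 19, -0.08 for 7304 copies with 20 to 99, -0.00237 for 1561 copies with 100 to under 1000, and 0.00468 for the 120 copies with 1000 or more. None of the copies with 5 to 9 counts passed by adjusted p-value, and 616 of the 2014 copies called at P under 0.05 were of this class. The 20 members with the most counts held 9.46% of all member counts, and 17 of them stayed within 0.5 of 0 on the log2 scale. At a fold change over 2, 1 was called higher and none lower. Others of the 20 passed by adjusted p-value (edgeR) below that fold. ID4_ copy 6398 (-0.48) and ID_B1 copy 73966 (-0.42) were lower, and ID_B1 copy 49299 (0.59) and RSINE1 copy 77323 (0.67) were higher.

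The counts of called copies also rested on the fit. DESeq2 called 217 higher and 256 lower, all of them among the copies called by edgeR, and a minimum of 20 counts left 371 and 459. Without G3 Terc-/- replicate 1 or 2 the higher calls numbered 318 and 309, and without WT replicate 1 or 2 the lower calls numbered 745 and 727. With either G3 Terc-/- library left out no TE copy passed by adjusted p-value (the lowest were 0.574 and 0.605). In these fits edgeR's prior degrees of freedom were 1.64 and 1.47, compared with 62.3 for all 4 libraries, so single copies below are given with all libraries.

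The copy with the smallest P of the ID group was also its most abundant. ID4_ copy 9501 had 1401 and 1411 counts in WT against 3039 and 2738 in G3 Terc-/- ESCs. Each G3 Terc-/- library held nearly or more than 2 times the counts of a WT library, at a log2 fold change of 1.14 ± 0.08 SE (2.21-fold, adjusted p = 6.94e-18, edgeR). It was the only one of the 20 most abundant members to pass a fold change of 2.

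ID_B1 copy 78820 rose from 230 and 241 counts to 635 and 593 (log2 fold change 1.49 ± 0.11 SE, adjusted p = 9.68e-17, edgeR). B4 copy 45039 rose from 159 and 192 counts to 487 and 452 (1.52 ± 0.12 SE, adjusted p = 1.78e-15, edgeR). Both were above all WT values in each G3 Terc-/- library by more than 2 times.

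Another pair of copies had reads in one genotype only. B4A copy 20871 had no count in WT against 90 and 93 counts in G3 Terc-/- ESCs, at least 33.0-fold higher against a floor of 3 counts per library (adjusted p = 1.67e-18, edgeR). B4 copy 55114 had none in WT against 70 and 57 in G3 Terc-/- ESCs, at least 22.7-fold higher (adjusted p = 6.84e-15, edgeR). These were the only 2 of 29294 tested members at 0 in both WT libraries and with at least 10 counts in both G3 Terc-/- libraries, a pattern shown by 37 of all 176114 TE copies tested.

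The reverse pattern was found in 2 members and in 10 of all tested TE copies, and both members were named after their values were seen. ID_B1 copy 45903 had 13 and 20 counts in WT but 0 in each G3 Terc-/- library, at least 5.08-fold lower. B4 copy 31319 had 14 and 10 in WT but 0 in each G3 Terc-/- library, at least 3.71-fold lower. No ID group copy was of either pattern at this minimum.

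Among copies that fell, the ID group held 2 of the 5 with the smallest P. ID4_ copy 10362 had 382 and 361 counts in WT against 143 and 109 in G3 Terc-/- ESCs (log2 fold change -1.46 ± 0.13 SE, adjusted p = 3.81e-13, edgeR), and ID4_ copy 5229 had 191 and 195 against 52 and 59 (-1.69 ± 0.17 SE, adjusted p = 4.51e-11, edgeR). The same name therefore held copies that rose and copies that fell past a fold change of 2, each without overlap between genotypes.

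In the B4 group, ID_B1 copy 12840 fell from 633 and 664 counts to 316 and 229 (log2 fold change -1.15 ± 0.11 SE, adjusted p = 4.19e-12, edgeR). ID_B1 copy 36863 fell from 86 and 119 counts to 25 and 18 (-2.14 ± 0.25 SE, adjusted p = 2.81e-09, edgeR), and B4A copy 42654 from 97 and 106 to 29 and 32 (-1.62 ± 0.23 SE, adjusted p = 5.84e-07, edgeR). In all 3 the higher G3 Terc-/- library was below the lower WT library.

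**Figure D4:**
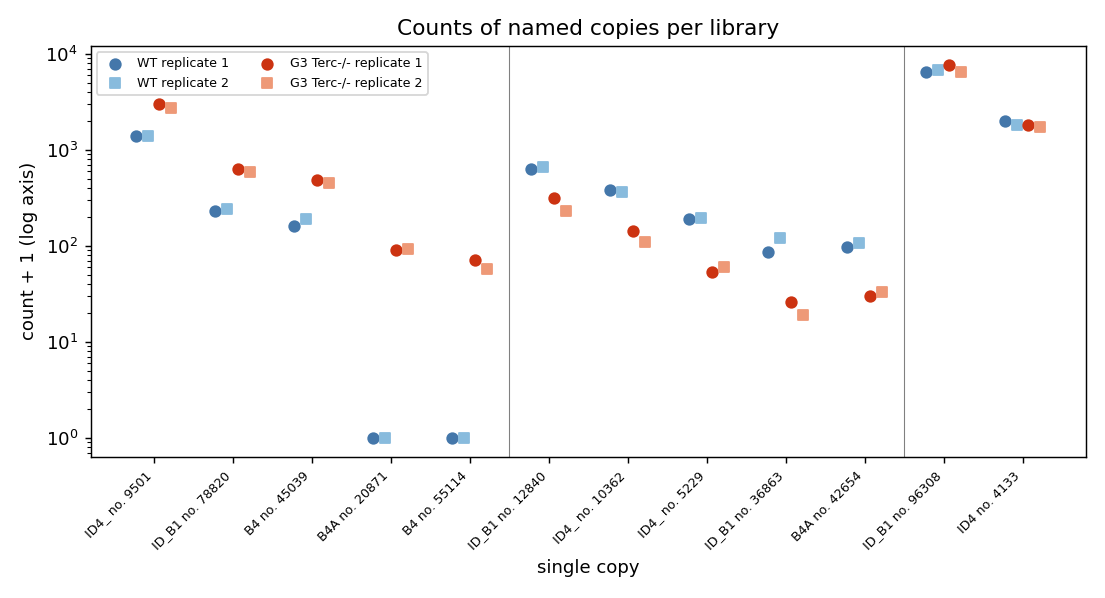
Counts plus 1 of single copies in each library (y axis, log scale), with the copies of smallest P that were higher in G3 Terc-/- ESCs on the left, those that were lower in the middle, and the most abundant copies of ID_B1 and ID4 on the right (x axis, repeat name and copy number). B4A copy 20871 and B4 copy 55114 lie at 0 counts in both WT libraries.

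For the other names, the called copies of smallest P had fewer counts. RSINE1 copy 43251 rose from 51 and 45 counts to 106 and 88 (log2 fold change 1.12) and RSINE1 copy 39927 fell from 82 and 92 to 30 and 25 (-1.55). ID4 copy 7998 rose from 33 and 37 to 75 and 62 (1.07), and ID4 copy 9345 fell from 83 and 83 to 37 and 22 (-1.39). All 4 passed by adjusted p-value, as did B4 copy 22971, which fell from 41 and 77 counts to 20 and 13 (-1.73). ID4 copy 7998 did not pass without WT replicate 1 (adjusted p = 0.0656, edgeR), nor B4 copy 22971 without WT replicate 2 (log2 fold change -1.23, adjusted p = 0.156, edgeR).

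ID and ID2 rested on smaller counts still. ID copy 2625 fell from 74 and 51 counts to 17 and 21 (log2 fold change -1.61, adjusted p = 0.000216, edgeR), whereas ID copy 2745, with 4 and 2 counts against 13 and 12, did not pass by adjusted p-value (2.12, adjusted p = 0.135, edgeR). ID2 copy 2588 rose from 3 and 2 counts to 16 and 15 (2.68, adjusted p = 0.0172, edgeR), a call lost with DESeq2 (adjusted p = 0.0871) and without WT replicate 1 (0.0656) or 2 (0.186). ID2 copy 230 had 11 and 5 counts in WT but 0 in each G3 Terc-/- library (adjusted p = 0.0257, edgeR), and did not pass without WT replicate 1 (adjusted p = 0.423).

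The most abundant copy of a name mostly stayed near its WT level. ID_B1 copy 96308, which had the most counts of all members, had 6440 and 6826 counts in WT against 7733 and 6553 in G3 Terc-/- ESCs, or 3384 and 3547 CPM against 4102 and 3909 CPM, so that the genotypes did not overlap once scaled for depth (log2 fold change 0.21 ± 0.07 SE, adjusted p = 0.174, edgeR). This copy passed with DESeq2 (adjusted p = 0.00131), at a minimum of 20 counts (0.0127) and with filterByExpr (0.034). ID4 copy 4133 (-0.00397), B4A copy 50494 (0.03), B4 copy 59012 (0.02), ID2 copy 3978 (0.15) and RSINE1 copy 75305 (0.22) did not pass either. ID copy 6250, with 159 and 131 counts in WT against 199 and 190 in G3 Terc-/- ESCs, was higher by 0.53 ± 0.15 SE on the log2 scale (adjusted p = 0.0441, edgeR), a call lost with DESeq2 (adjusted p = 0.130) and without WT replicate 2 (log2 fold change 0.37, adjusted p = 0.559).

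Copies with neighbouring running numbers resembled each other. The running number counts the copies of a name, from 1 to the number of its copies, and the sources used here do not say what orders it, so positions are not given. Over 1924 pairs of members of the same name with consecutive numbers and at least 20 counts each, the log2 fold changes had a Pearson r of 0.32. Over 2406 pairs 2 to 5 numbers apart r was 0.14, over 4455 pairs 6 to 20 apart 0.10, over 19284 pairs 21 to 100 apart 0.03, and over 19486 pairs 1000 to 1100 apart 0.000129. The pairs share the 4 libraries and are not independent of each other, so these values are descriptions.

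Direction followed the same order. Where both copies of a consecutive pair were called, they moved in the same direction in 31 of 31 pairs, compared with 27 of 33 at 2 to 5 apart, 47 of 60 at 6 to 20 apart and 106 of 192 at 1000 to 1100 apart. Runs of at least 3 called copies with gaps of at most 5 numbers occurred 16 times and took in 53 copies. In 12 of these runs every called copy moved one way, 7 higher and 5 lower.

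The run with the most counts was in B4A, numbers 42651 to 42654, where 4 consecutive copies fell. Copy 42651 had 84 and 101 counts in WT against 33 and 22 in G3 Terc-/- ESCs, copy 42652 had 111 and 101 against 52 and 27, copy 42653 had 146 and 123 against 52 and 46, and copy 42654 is given above. Together they had 869 counts in WT and 293 in G3 Terc-/- ESCs. The longest run, with 5 called copies between B4A numbers 36974 and 36985, was higher (205 counts in WT and 425 in G3 Terc-/- ESCs), with most of its counts in copies 36979 and 36985.

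Called copies were not spread evenly along the numbering. With each name cut into 20 bins of equal width, the share of tested members called lay between 5.34% and 9.56% (median 6.69%), and was highest in the bin from 30% to 35% of the numbers. In 100 bins of members with at least 20 counts, a stretch from 32% to 37% stood out, a stretch chosen after its values were seen and so given without a test. Within it 77 of 367 copies were called (43 higher and 34 lower), compared with 721 of 8618 (8.37%) elsewhere. The direction was not even along the stretch. From 33% to 34%, 19.4% of 72 copies were lower and 4.17% higher (median log2 fold change -0.57). From 36% to 37%, 17.7% of 79 copies were higher and 0% lower (median 0.40), and the bins between held both directions.

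Both groups took part in it. In the stretch, 30.6% of B4A, 20.2% of ID_B1, 19.4% of RSINE1, 33.3% of ID4_, 16.2% of ID4 and 27.3% of ID copies were called, on 49, 129, 72, 27, 37 and 11 copies, while B4 (9.09% of 33) was no higher there than elsewhere (9.25%). ID2 had 9 copies in it, of which 1 was called. The stretch was not particular to the members: at the same percent of their own numbering, 16.2% of B1 copies (8.60% elsewhere), 59 of 310 B2 and B3 copies (8.44% elsewhere) and 18.9% of the copies of all other names with at least 5000 copies (10.6% elsewhere) were called.

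**Figure D5:**
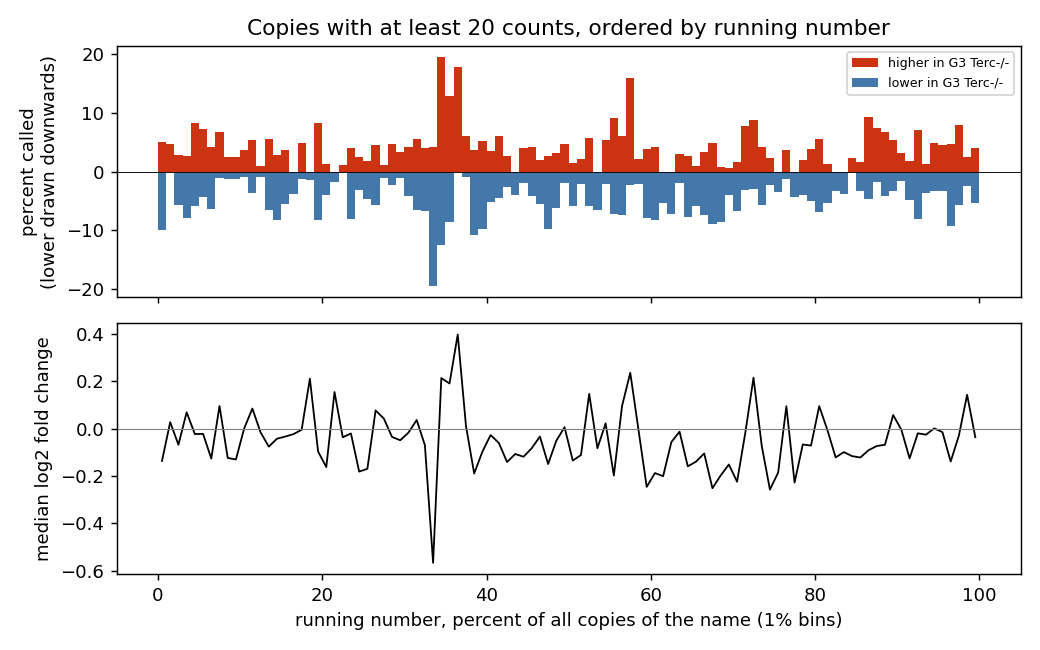
Members with at least 20 counts ordered by running number as a percent of the copies of their name (x axis, 1% bins). The upper panel gives the percent called higher (red, upwards) and lower (blue, downwards) and the lower panel the median log2 fold change; the called shares peak between 32% and 37%.

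Genes that act on SINE RNAs were given from 3 lists, beside a background of 21.7% of 14896 tested genes higher and 21.8% lower by adjusted p-value. RNA polymerase III, with its factors, transcribes SINEs and tRNA genes. Of its 26 genes, 4 were higher and 6 lower, a share below the background for the higher genes and near it for the lower ones, and the median log2 fold change was -0.04. Without WT replicate 1 or WT replicate 2 the higher genes numbered 2, and without WT replicate 2 the lower genes numbered 3.

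Subunits of TFIIIC, the factor that binds the A and B boxes, were among those higher. Gtf3c6 had 37.2 and 38.7 CPM of gene counts in WT against 46.8 and 48.8 in G3 Terc-/- ESCs (log2 fold change 0.33 ± 0.07 SE, adjusted p = 0.000199, edgeR), and Gtf3c1 177.6 and 177.5 CPM against 207.7 and 195.6 (0.18, adjusted p = 0.00356, edgeR, lost without either WT library at 0.0705 and 0.0753). The polymerase subunit Polr3f was higher by 0.35. Polr3g and Polr3gl, which take the same place in alternative forms of the polymerase, both fell, Polr3gl from 470 and 511 counts to 304 and 233 (-0.75 ± 0.10 SE, adjusted p = 4.69e-08, edgeR) and Polr3g by 0.25 on the log2 scale. Polr3g did not pass without WT replicate 2 (adjusted p = 0.0755, edgeR). Ssb, the La protein that binds the 3′ ends of RNA polymerase III transcripts, fell from 367.9 and 383.1 CPM to 291.1 and 322.7 (-0.29).

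Of 24 genes that act in silencing of SINEs and other repeats, 3 were higher and 8 lower, with a median of -0.05, and 2 passed a fold change of 2, which 7.47% of all genes did. Dnmt3b, a de novo DNA methyltransferase, fell from 514.0 and 522.7 CPM to 231.2 and 241.3 (log2 fold change -1.13 ± 0.05 SE, adjusted p = 1.59e-22, edgeR). Cbx3, a heterochromatin protein that binds methylated H3K9, fell from 155.6 and 167.1 CPM to 64.3 and 72.2 (-1.24 ± 0.06 SE, adjusted p = 9.09e-21, edgeR), and the related Cbx1 fell by 0.59 on the log2 scale. Trim28, the corepressor recruited by zinc finger proteins, rose from 1631 and 1632 CPM to 2232 and 2104 (0.41 ± 0.05 SE, adjusted p = 9.46e-10, edgeR). Mbd1, which binds methylated DNA, was also higher (0.58), as was Pogz (0.15, adjusted p = 0.0259, edgeR), whose call was lost without WT replicate 1 (0.244), WT replicate 2 (0.133) or G3 Terc-/- replicate 1 (0.0631).

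Of 20 genes whose proteins bind or process SINE RNA, 5 were lower and none was higher by adjusted p-value with edgeR (5 and 3 at an unadjusted P under 0.05), with a median of 0.00121, and 1 was higher with DESeq2 or without either G3 Terc-/- library. Hnrnpa2b1, an RNA-binding protein of RNA transport and splicing, fell from 1375 and 1437 CPM to 805.4 and 864.4 (log2 fold change -0.75 ± 0.05 SE, adjusted p = 5.99e-17, edgeR). Srp68, a subunit of the signal recognition particle, fell from 140.2 and 143.7 CPM to 111.6 and 106.5 (-0.38 ± 0.06 SE, adjusted p = 2.67e-07, edgeR). Ssb, given above, is in this list as well as in that of RNA polymerase III and counts among the lower genes of both.

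Cbx3 and Hnrnpa2b1, the genes with the lowest log2 fold change of their lists, are neighbours on chromosome 6 (GRCm38). Of the 67 tested genes of that chromosome whose start lay within 5 Mb of the start of Cbx3, a window chosen after the values were seen, 48 (71.6%) were lower by adjusted p-value, and their median log2 fold change was -0.88. Beyond this window 167 of 624 genes of chromosome 6 were lower (26.8%) and 235 higher (37.7%), with a median of 0.13. On other chromosomes 21.3% were lower and 21.1% higher. The fall of both genes was therefore shared by most genes around them. Exome sequencing in the study found part of chromosome 6 lost in G3 as well as G4 Terc-/- ESCs. Whether Cbx3 and Hnrnpa2b1 lie in the lost part was not tested. Since the table used here gives no positions of the B4 and ID copies, how many of them lie within 5 Mb of Cbx3 was not tested.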

How the data were processed

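Poly(A) RNA-seq of 4 ESC libraries was used, grouped by genotype from the labels. The authors deposited raw counts per gene and per TE copy without normalization, and the submitters' processing notes name Trim Galore, STAR, featureCounts and mm10 without versions; strand and multimapper settings were not given in the sources used here. The study's methods speak of uniquely mapped reads for single copies. If only such reads were counted, young copies with near-identical sequences are undercounted, and copies of similar sequence or overlapping genes are uncertain. Copies carry a name and a running number but no position or sequence in the table used here.

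From the deposited counts, sums per repeat name, copies with at least 5 counts over the 4 libraries and genes were each fitted whole with edgeR 4.0.16 (TMM, quasi-likelihood test, genotype only; filterByExpr for names and genes) in R 4.3.3, with Benjamini-Hochberg adjustment over all features. CPM are TMM-scaled. Shares and ratios were tested by exact permutation (scipy 1.17.1), and figures were drawn with matplotlib 3.10.9. Intervals for shares were not computed because the spread over 2 libraries is given; counting error and floors cover counting only. The text names all 8 repeat names, the most abundant copy and the called copies of smallest P in each direction per name, the 5 called copies of smallest P in each direction whose mean over libraries reached 20 counts, the 3 genes of smallest P in each direction per list, Bc1 and Terc. Members and lists were chosen with earlier results of these data known. On simulated counts with a known log2 change of 1, the fits recovered by adjusted p 100% of 200 names among 913. At the same change they recovered 100% of 200 genes among 14850. At a log2 change of 1.5, they recovered 77.5% of 200 copies among 156200. Only well-counted features were given a change: copies averaging 20 or more counts per library, and names and genes averaging 100 or more. Recovery was not split by counts, so the 77.5% cannot be read as the recovery of copies with few counts. The median tested member had 11 counts over the 4 libraries, too few to be among the changed copies. The rates for names and genes likewise leave out those with fewer counts. Changes as small as those of the 8 names were not simulated. Alternatives were DESeq2 1.42.0, its size factors in edgeR, scaling by gene counts, other filters, copy sets, denominators and call rules, a replicate block and each library left out in turn. Replicates differed by more than sampling noise (chi-square per copy 1.48 in WT and 1.47 in G3 Terc-/- ESCs).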

Additional observations from a re-analysis of the deposited data

How the results depend on the processing

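Replicate numbers did not pair the samples (correlation of same-numbered deviations 0.0616 over genes and -0.05 over names). With the replicate number as a block, no name was lower (0 of 8), 532 copies were higher and 640 lower, and 4 SINE RNA binding genes were higher in place of 0. Of the 4 names called lower, 2 remained with DESeq2, 0 with scaling by the gene counts and 0 at a fold change over 1.5 with P under 0.05, while 7 names were lower without the most abundant copy of each name. Leaving out 1 library gave 0 to 6 names lower, 309 to 690 copies higher and 727 to 912 lower, 2 to 5 RNA polymerase III genes higher and 3 to 8 lower, and 0 to 1 SINE RNA binding genes higher. Copies called higher and lower numbered 867 and 1147 as reported, 217 and 256 with DESeq2, 371 and 459 at a minimum of 20 counts, 222 and 292 with filterByExpr, 57 and 78 by adjusted p-value, and 793 and 1073 without the stretch from 32% to 37%, an alternative added after seeing the data. DESeq2 called 1 SINE RNA binding gene higher.

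The difference in share of the B4 group was -0.0572 percentage points of the TE counts, a relative change of -0.474%. It became -0.253 without TE copies of over 10000 counts, and -0.147 to 0.0328 with 1 library left out. Of the gene counts, a different base, the difference was 0.0397 percentage points, a relative change of 3.52%. For the ID group the difference was -0.0195 percentage points of the TE counts, a relative change of -0.589%. It became -0.107 without the most abundant copies, -0.0593 without copies of over 10000 counts, and -0.0541 to 0.0151 with 1 library left out. Of the gene counts it was 0.0107 percentage points, a relative change of 3.45%. Signs turned for ID_B1 (0.0399), ID4 (0.00267) and ID4_ (0.0220) with scaling by the gene counts and for ID2 (-0.00642) without its most abundant copy. They also turned for 3 abundant copies near 0: B4 copy 59012 (-0.00681 with filterByExpr, -0.0417 to 0.0901 with 1 library left out), B4A copy 50494 (-0.0044 with filterByExpr, -0.000791 to 0.0573) and ID4 copy 4133 (0.0214 with scaling by the gene counts, -0.0842 to 0.0802). The causes were not tested. Depth limits the copies: 12304 of the 29294 tested had 5 to 9 counts over 4 libraries.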
